A study of Rattus norvegicus with 16 samples.

Results

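The comparison described here is between lungs of hypoxic rats that received estradiol and lungs of hypoxic rats that received estradiol together with fulvestrant. Its members are 8 of the 16 arrays of the series, chosen by sample title: 4 arrays titled hypoxia+estrogen+fulvestrant and 4 titled hypoxia+estrogen. Each array measured the right lung of a single rat, a Sprague-Dawley male weighing 250 to 300 g whose age is not given. All 8 rats spent 2 weeks in a hypobaric chamber at 362 mmHg, which corresponds to breathing 10% oxygen at sea level, and all 8 carried implanted pumps that delivered 17β-estradiol (E2), 75 µg/kg/day over 3 weeks, with 1 week of recovery before the chamber. The 4 rats of the fulvestrant group were also injected under the skin each day with fulvestrant at 3 mg/kg/day. The other 8 arrays came from 4 hypoxic and 4 normoxic rats without either drug and serve as reference levels. The labels do not say whether the rats without fulvestrant received vehicle injections, and fulvestrant without estradiol was not analysed here. Below, "estradiol arrays" and "fulvestrant arrays" denote hypoxia with estradiol and hypoxia with estradiol plus fulvestrant.

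Estradiol acts through the nuclear receptors Esr1 and Esr2, which bind DNA as ligand-dependent transcription factors, and through the membrane receptor Gper1. Fulvestrant binds the nuclear receptors, blocks their activity and promotes breakdown of the receptor protein, but it is an agonist at Gper1 in many assays. In the lung, chronic hypoxia thickens and muscularises small pulmonary arteries, and estradiol is known to lessen this in rats. The title of the series concerns estrogen receptor dependence of that protection. The comparison therefore asks which mRNA levels of the estradiol-treated hypoxic lung differed when fulvestrant was added.

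Values are log2 RMA signals of 14506 genes, so a difference of 1 is a doubling, and n = 4 arrays per group throughout. The labelled tissue was checked on lung markers: the surfactant gene Sftpc averaged 13.92 ± 0.0047 on the estradiol arrays and 13.91 ± 0.027 on the fulvestrant arrays (SD), and the alveolar type 1 gene Ager 13.49 ± 0.033 and 13.49 ± 0.031, where array medians were 7.71 to 7.76. Across genes, any pair of the 8 arrays correlated at 0.988 to 0.996. The median SD of a gene within the group was 0.129 on the estradiol arrays and 0.0917 on the fulvestrant arrays. In a principal component analysis of the 8 arrays the first component held 35.0% of the variance. The fulvestrant arrays lay together on it, at 7.52 to 10.46, whereas the estradiol arrays were spread, with replicate 4 at 6.49, replicate 1 at -0.09, replicate 3 at -18.78 and replicate 2 at -22.96. Estradiol replicates 2 and 3 therefore stood apart from the other arrays on that component. On the second component, with 16.7% of the variance, estradiol replicate 1 was the most extreme array, at -15.74. Medians of the gene lists that estradiol replicates 2 and 3 moved by over 1.5 times are also given without both. So are the genes named by rule that they moved as much. Other list members are given on all arrays.

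Few genes could be called different with fulvestrant by the test used, and such a count is not the number of genes that changed. With limma and Benjamini-Hochberg adjustment over all genes at 0.05, 7 genes passed (0.0483% of those tested), 3 higher with fulvestrant (0.0207%) and 4 lower (0.0276%). The genes that passed were Cx3cr1, Septin4 and Il17rb, which were higher, and Mrc1, Megf6, Myo5b and Prkx, which were lower. Differences were small: 1 of the 7, Cx3cr1, reached 1.5-fold, and over all genes the median absolute log2 difference was 0.082. Many genes lay just past the threshold. A further 54 had an adjusted p between 0.05 and 0.065, 242 (1.67%) were under 0.10, a threshold added after the data were seen, and 2142 (14.8%) had an unadjusted p under 0.05. The 4 + 4 arrays did not overlap for 1313 genes (9.05%), 693 higher (4.78%) and 620 lower (4.27%). The count that passed moved with single arrays: it was 331 without estradiol replicate 4, and 3, 1, 0, 2 and 0 without estradiol replicates 1 and 3 and fulvestrant replicates 1, 2 and 3. With both estradiol replicates 2 and 3 left out it was 0, and with the model fitted to the 8 arrays alone it was also 0. All 242 genes under 0.10 kept the sign of their difference in each of these fits. They were picked for small p on these same arrays, so a kept sign adds no support. In the fit of the 8 arrays alone the differences are the same by construction.

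**Figure D1:**
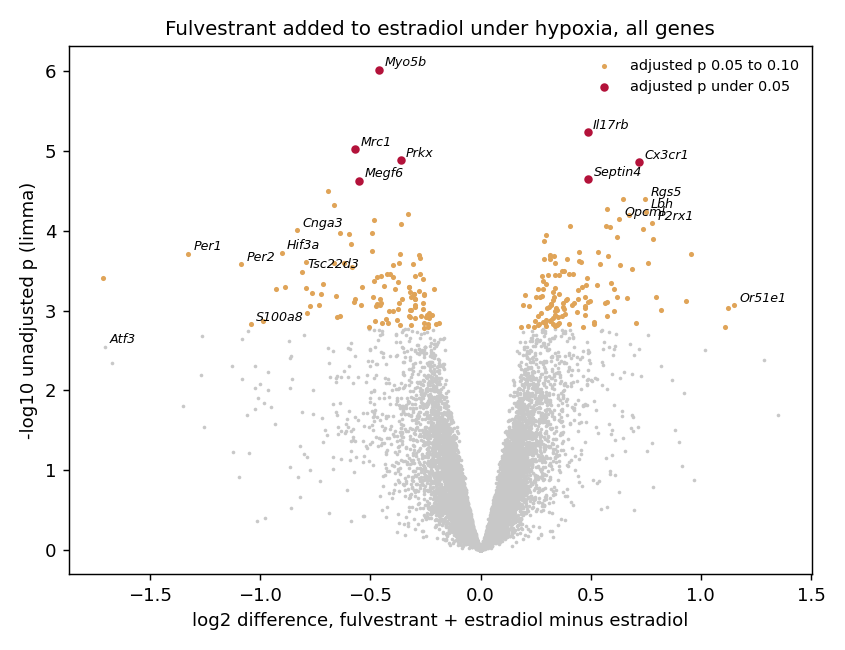
Log2 difference between the fulvestrant and the estradiol arrays (x axis) against the -log10 unadjusted limma p (y axis) for 14506 genes, 1 point per gene. The 7 genes under adjusted p 0.05 are dark red and those from 0.05 to 0.10 orange; the passing genes lie between -0.57 and 0.72, inside the span of the genes that did not pass, such as Per1 at -1.33 and Or51e1 at 1.15.

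Of the 3 genes that rose and passed the test, Cx3cr1, the fractalkine receptor of monocytes and resident macrophages (probe set 10920981), had the largest difference. The estradiol arrays read 9.13, 9.20, 9.15 and 9.53 and the fulvestrant arrays 10.19, 9.97, 9.99 and 9.74. The groups did not overlap, estradiol replicate 4 being the highest of its group, and the difference was 0.72 (1.65-fold, SE 0.12, limma adjusted p = 0.0403). The hypoxia arrays without drug read 10.10, 9.86, 9.87 and 10.14, all within the range of the fulvestrant arrays. Septin4, a filament-forming GTP-binding protein, rose by 0.49 (SE 0.08, limma adjusted p = 0.0495), from 10.73, 10.99, 10.87 and 11.01 to 11.43, 11.37, 11.35 and 11.41. Every fulvestrant array of Septin4 also read at or above 11.35, near the highest of the hypoxia arrays (11.14 to 11.36). Il17rb, a subunit of the receptor for interleukin 25, read 6.71, 6.85, 6.62 and 6.88 on the estradiol arrays and 7.36, 7.20, 7.25 and 7.19 on the fulvestrant arrays. It rose by 0.49 (SE 0.07, limma adjusted p = 0.0403) on a dim probe set that lay below the array medians.

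Of the genes that fell, Myo5b, the myosin motor of recycling endosomes in epithelial cells, had the smallest p. Its estradiol arrays read 10.15, 10.02, 9.96 and 9.90 and its fulvestrant arrays 9.55, 9.57, 9.52 and 9.54, a difference of -0.46 (SE 0.06, limma adjusted p = 0.0142). The 4 fulvestrant arrays lay close together and below the hypoxia arrays as well (9.63 to 9.82). Mrc1, the mannose receptor CD206 of macrophages and some endothelial cells, read 11.63, 11.44, 11.78 and 11.33 with estradiol and 11.12, 10.93, 10.85 and 10.997 with fulvestrant. It fell by 0.57 (1.49-fold, SE 0.09, limma adjusted p = 0.0403). Its fulvestrant arrays lay within the range of the hypoxia arrays (10.93 to 11.13), except replicate 3, which was below it. Megf6, which encodes a protein with repeated epidermal growth factor domains, fell by 0.55 (SE 0.09, limma adjusted p = 0.0495), from 9.77, 9.35, 9.63 and 9.48 to 8.88, 9.05, 8.90 and 9.20. Prkx, a catalytic subunit of the cyclic AMP-dependent kinase family, fell by 0.36 (SE 0.06, limma adjusted p = 0.0403), from 10.56, 10.45, 10.32 and 10.36 to 10.14, 10.07, 10.06 and 9.96. For both genes all 4 fulvestrant arrays were below all 4 estradiol arrays. They were also below all 4 hypoxia arrays (9.213 to 9.255 for Megf6, 10.153 to 10.267 for Prkx). Myo5b passed in 14 of 19 alternative fits, Il17rb in 10, Mrc1 in 9, Cx3cr1, Megf6 and Prkx in 8 each, and Septin4 in 7. None passed without estradiol replicates 2 and 3, where limma adjusted p ran from 0.139 (Myo5b) to 0.270 (Cx3cr1). All 7 kept their direction in all 19 fits, which adds no support. The genes were chosen on these same arrays, and several of the fits leave the difference itself unchanged.

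**Figure D2:**
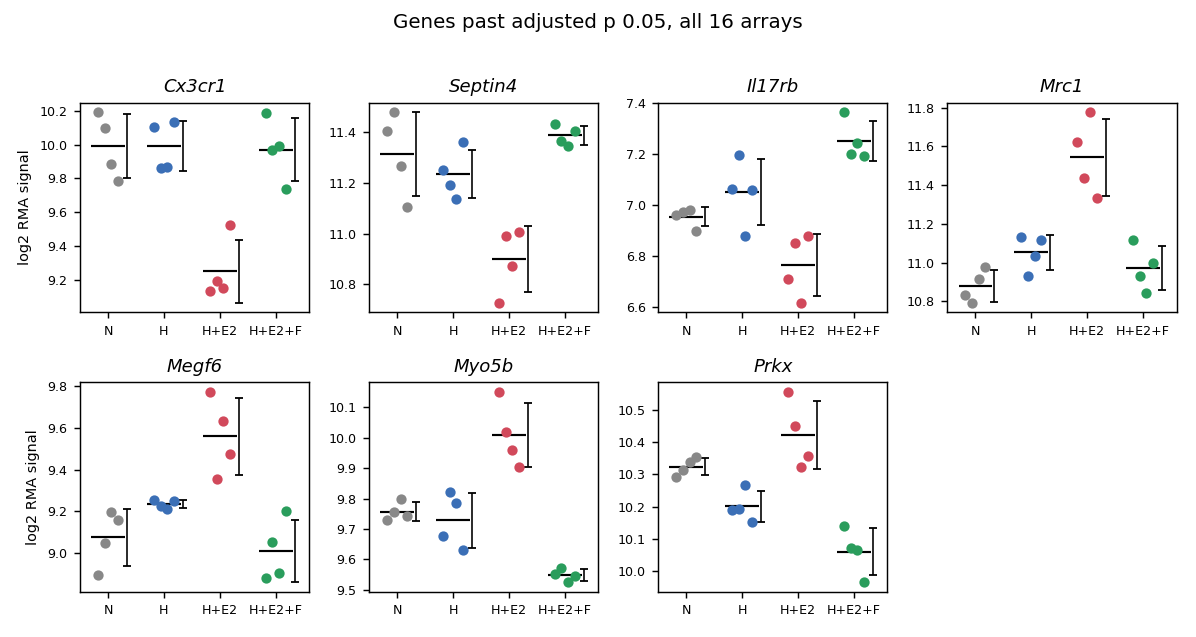
Log2 RMA signal of the 7 genes that passed, 1 panel per gene, on all 16 arrays: normoxia (N), hypoxia (H), hypoxia with estradiol (H+E2) and hypoxia with estradiol and fulvestrant (H+E2+F). Each point is 1 array, horizontal lines are group means, bars beside them are ± 1 SD (n = 4), and the y axes differ and do not start at 0. In every panel the 4 green points and the 4 red points do not overlap.

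The level of each passing gene without drugs can be set beside these values, with the caution that the estradiol-against-hypoxia difference uses the same estradiol arrays. In that contrast Cx3cr1 was -0.74 (limma adjusted p = 0.0295), Mrc1 0.49 (0.0362) and Myo5b 0.28 (0.0399), and these passed. The others, Septin4 (-0.34, adjusted p = 0.0692), Il17rb (-0.29, 0.0799), Megf6 (0.32, 0.113) and Prkx (0.22, 0.0815), did not. Against the hypoxia arrays without drug, the fulvestrant arrays differed by -0.02 for Cx3cr1, 0.15 for Septin4, 0.20 for Il17rb, -0.08 for Mrc1, -0.23 for Megf6, -0.18 for Myo5b and -0.14 for Prkx, with adjusted p of 0.573 or more.

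Mrc1 and Cx3cr1 are also markers of lung macrophages and monocytes, and in whole lung fewer cells of a type and less RNA per cell cannot be told apart. Of 20 alveolar macrophage markers measured, Mrc1 was the 1 that passed, 15 were lower and 5 higher, and the median difference was -0.18, where the median of all genes was 0.005 and 51.5% of genes were higher. The mean of these markers, relative to the hypoxia group, was -0.02, -0.30, 0.26 and -0.14 on the estradiol arrays and -0.24, -0.13, -0.24 and -0.21 on the fulvestrant arrays, so the groups overlapped. The median of these markers was -0.06 without estradiol replicate 3, -0.11 without fulvestrant replicate 1 and -0.11 without estradiol replicates 2 and 3. The arrays did not overlap for 3 of these markers that were lower (4.27% of all genes), Mrc1, Il18 and Abcg1. They did not overlap either for 1 that was higher (4.78% of all genes), the carbonic anhydrase Car4, also a capillary marker. The cytokine gene Il18 differed by -0.48 (limma adjusted p = 0.224) and the cholesterol exporter Abcg1 by -0.22 (0.219). The scavenger receptor Marco, a defining marker, differed by -0.03. Of 25 monocyte and interstitial macrophage markers, Cx3cr1 rose, Mrc1 fell and 23 did not pass; 18 were higher, and the median was 0.09, or 0.14 without estradiol replicate 3. The monocyte receptor Ccr2 differed by 0.48 (adjusted p = 0.256) and Csf1r, the receptor for macrophage colony-stimulating factor, by 0.08. The mean of that list ran from -0.26 to 0.08 on the estradiol arrays and from -0.02 to 0.08 on the fulvestrant arrays. The part of cell numbers in the differences of Mrc1 and Cx3cr1 was not tested.

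The genes next in order of p that were higher on the fulvestrant arrays did not pass (limma adjusted p = 0.0586 for each), although their arrays did not overlap. Rgs5, a regulator of G protein signalling that marks pericytes, read 11.15, 10.85, 10.85 and 10.68 with estradiol and 11.91, 11.56, 11.83 and 11.21 with fulvestrant (difference 0.75, SE 0.13). P2rx1, the ATP-gated channel of arterial smooth muscle and platelets, read 8.65, 8.64, 8.22 and 8.56 against 9.09, 9.16, 9.24 and 9.70 (0.78). Atp1b2, a beta subunit of the sodium-potassium pump, read 7.95, 7.63, 7.52 and 7.77 against 8.46, 8.02, 8.47 and 8.49 (0.65). In Atp1b2 and Rgs5 the hypoxia arrays, at 8.34 to 8.64 and 11.49 to 11.85, lay with the fulvestrant arrays. Differences of the remaining 4 were 0.75 for the transcription cofactor Lbh (0.28 on its other probe set), 0.67 for the endothelial gene Myct1 (0.41 without estradiol replicates 2 and 3), 0.63 for the cell adhesion gene Opcml and 0.57 for the homeobox gene Hoxa4.

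The corresponding genes that were lower, also at a limma adjusted p of 0.0586 each and also without overlap, were Pde4c, Rab20, Cnga3, Scg2, Gadd45a and Lrrk2. Pde4c, a phosphodiesterase that degrades cyclic AMP, read 8.86, 8.87, 8.47 and 8.75 with estradiol and 8.14, 8.08, 7.76 and 8.21 with fulvestrant (-0.69). Rab20, a small GTPase of endosomes and phagosomes, read 9.12, 9.17, 9.19 and 8.59 against 8.12, 8.40, 8.42 and 8.47 (-0.67). Cnga3, a subunit of a channel opened by cyclic nucleotides, read 7.39, 7.65, 7.21 and 7.42 against 6.57, 6.64, 6.60 and 6.53 (-0.83). Cnga3 on the fulvestrant arrays was thus close to the normoxia mean of 6.64 and below each hypoxia array (6.94 to 8.02). Scg2, which encodes the secretory granule protein secretogranin, read 5.05, 5.26, 5.27 and 5.21 against 4.83, 4.81, 4.85 and 4.99 (-0.33), on a dim probe set. Its fulvestrant arrays were also below all 4 hypoxia arrays (5.20 to 5.29). The growth arrest gene Gadd45a differed by -0.48 and the kinase gene Lrrk2 by -0.36.

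The receptor genes themselves are given on every array of the comparison, although mRNA does not check whether the drug reached its protein target. Esr1 read 7.28, 7.28, 6.92 and 7.38 with estradiol and 7.51, 7.33, 7.46 and 7.31 with fulvestrant, a difference of 0.19 (SE 0.13, limma adjusted p = 0.56); its other probe set gave 0.42, and the difference was 0.09 without estradiol replicate 3 and 0.08 without replicates 2 and 3. Esr2 read 6.15, 6.91, 6.31 and 6.44 against 6.30, 6.27, 6.39 and 6.45 (-0.10, SE 0.15, adjusted p = 0.815), a difference that turned positive (0.05) without estradiol replicate 2 and also without replicates 2 and 3. Gper1 read 8.52, 8.57, 8.57 and 8.23 against 8.66, 8.60, 8.90 and 8.64 (0.22, SE 0.11, adjusted p = 0.35), and differed by 0.14 without estradiol replicate 4. For the nuclear receptors the groups overlapped, and for Gper1 they were just apart. The 95% interval was -0.09 to 0.47 for Esr1 and -0.41 to 0.21 for Esr2.

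Genes known to respond to estrogen in breast or uterus were split between the directions. Of 30 measured, 0 passed, 16 were higher and 14 lower, and the median was 0.04, or 0.03 without estradiol replicates 2 and 3; arrays did not overlap for 2 of the 30 (6.67%, against 9.05% of all genes), both lower. These were the growth factor gene Areg, at -1.26 (SE 0.34, adjusted p = 0.105), and Socs2, a suppressor of cytokine signalling, at -0.57 (SE 0.17, 0.125). The progesterone receptor gene Pgr differed by -0.19, Ccnd1 by 0.27, Myc by -0.38 and the endothelial nitric oxide synthase gene Nos3 by -0.04, with adjusted p from 0.201 to 0.882. Of 18 receptors and coregulators 0 passed and 13 were lower, with a median of -0.09. Arrays did not overlap for 22.2% of them, against 9.05% of all genes: Gper1 and Gata3 were higher, Esrra and Ncoa2 lower. The largest difference was that of Gata3, a transcription factor of lymphocytes and some epithelia, at 0.93 (SE 0.22, adjusted p = 0.0793). Estrogen synthesis and breakdown (14 genes, median -0.04) and targets of the aryl hydrocarbon receptor (9 genes, median -0.10) also had 0 passing genes.

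Large list medians were seen in transcripts that respond within hours to hormones, time of day or stress, although no gene of these lists passed. Of 27 glucocorticoid-responsive genes 23 were lower with fulvestrant and 4 higher, with a median of -0.47, and in 8 (29.6%, against 4.27% of all genes) the fulvestrant arrays were all below the estradiol arrays. Hif3a, an inhibitory member of the hypoxia-inducible factor family, read 7.66, 8.08, 7.94 and 8.002 with estradiol and 7.32, 7.24, 6.78 and 6.73 with fulvestrant (-0.90, SE 0.19, limma adjusted p = 0.0638). Tsc22d3, the glucocorticoid-induced leucine zipper, read 11.26, 11.26, 11.07 and 11.22 against 10.92, 10.54, 9.87 and 10.23 (-0.81, SE 0.18, adjusted p = 0.0699). The hypoxia arrays of Hif3a (6.80 to 7.15) and Tsc22d3 (10.19 to 10.52) lay below the estradiol arrays too. Fkbp5, a co-chaperone of the glucocorticoid receptor, differed by -1.08 (adjusted p = 0.109) and the receptor gene Nr3c1 by 0.10 (0.399). List means on the estradiol arrays were 0.23, 0.74, 0.41 and 0.19 above the hypoxia group, and those on the fulvestrant arrays 0.15, 0.04, -0.17 and -0.04. The list median was -0.29 without estradiol replicate 2. Without estradiol replicates 2 and 3 it was -0.10, while Hif3a kept -0.81 and Tsc22d3 -0.85.

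Of 17 circadian clock genes measured, 0 passed, 14 were lower with fulvestrant and 3 higher. Per1, a clock repressor that glucocorticoids also induce, read 11.07, 11.85, 11.55 and 10.50 with estradiol and 10.32, 10.20, 9.38 and 9.76 with fulvestrant, a difference of -1.33 (2.51-fold, SE 0.28, limma adjusted p = 0.0638). Per2 read 10.28, 9.57, 9.10 and 9.37 against 8.54, 8.32, 8.56 and 8.56 (-1.09, 2.12-fold, SE 0.23, adjusted p = 0.0638). In both genes every fulvestrant array was below every estradiol array, and the 4 fulvestrant arrays of Per2 lay close together. They were the 2 of the 17 that were lower without overlap (4.27% of all genes), and 1, Clock, was higher without overlap (4.78%). The repressor Bhlhe41 read 9.54, 9.98, 9.79 and 8.60 against 8.50, 8.70, 8.60 and 8.67 (-0.86, adjusted p = 0.125), so that estradiol replicate 4 lay among the fulvestrant arrays. Per3 differed by -0.72 and the output gene Dbp by -0.82, whereas Bmal1, Npas2 and Clock differed by 0.78, 0.59 and 0.23; none of these 5 passed (adjusted p from 0.214 to 0.339). The list median was -0.42, and -0.27 without estradiol replicate 1. Without estradiol replicates 2 and 3 it was -0.35, with Per1 at -0.87, Per2 at -1.33 and Bhlhe41 at -0.45. Relative to the hypoxia group, list means were 0.49, 0.61, 0.32 and -0.08 on the estradiol arrays and -0.02, -0.08, 0.04 and -0.01 on the fulvestrant arrays. The time of day at which each lung was taken is not given in the labels.

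Immediate early genes, which are transcribed within minutes of a stimulus, were lower in 29 of 31 cases, with a median of -0.37, and the arrays did not overlap in 5, all lower (16.1%, against 4.27% of all genes). Atf3, a stress-induced transcription factor, read 9.99, 12.63, 11.26 and 9.28 with estradiol and 8.93, 9.16, 9.03 and 9.22 with fulvestrant (-1.71, 3.26-fold, SE 0.48, limma adjusted p = 0.117). Dusp2, a phosphatase that switches off MAP kinases, read 9.05, 11.10, 9.56 and 8.64 against 8.47, 8.50, 8.39 and 8.48 (-1.13, adjusted p = 0.138). Csrnp1, a nuclear protein induced by axin and cytokines, read 9.99, 11.59, 10.72 and 9.98 against 9.63, 9.67, 9.31 and 9.71 (-0.99, adjusted p = 0.0941). In all 3 the estradiol arrays were led by replicate 2, then replicate 3, and the fulvestrant arrays were tightly grouped. Without replicate 2 alone Atf3 was at -1.09, Dusp2 at -0.62, Csrnp1 at -0.65 and the list median at -0.18. Without both arrays Atf3 was at -0.55, Dusp2 at -0.39, Csrnp1 at -0.40 and the list median at -0.09. Relative to the hypoxia group, the list mean was 0.02, 1.08, 0.44 and 0.02 on the estradiol arrays and -0.11, -0.10, -0.16 and 0.08 on the fulvestrant arrays.

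**Figure D3:**
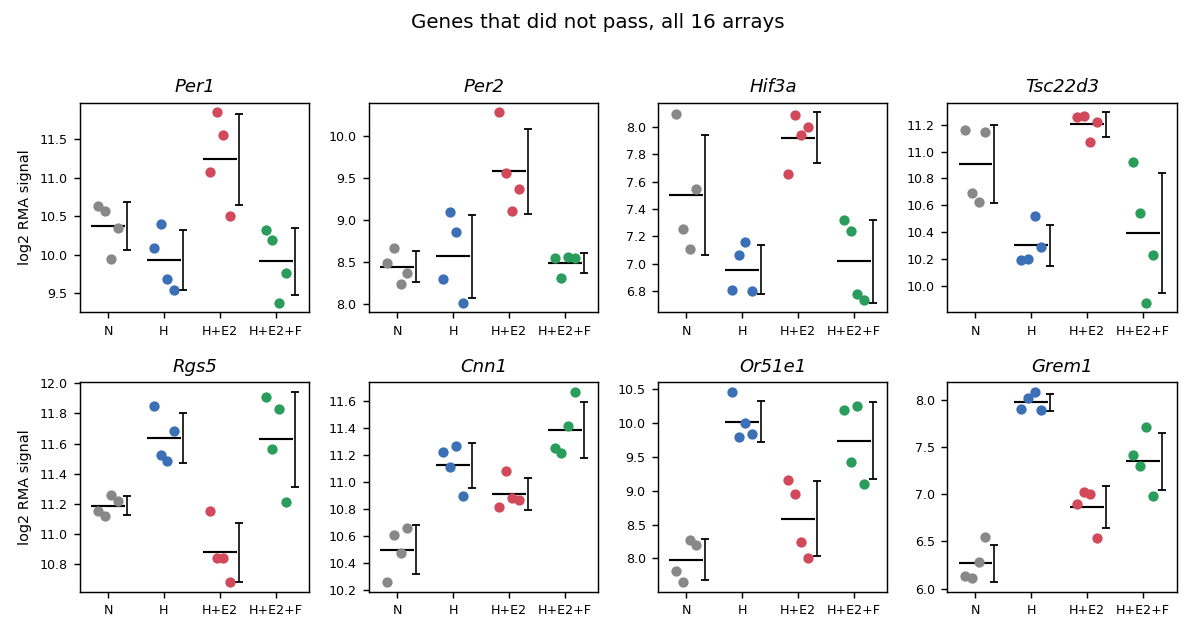
Log2 RMA signal on all 16 arrays of 8 genes that did not pass: the clock genes Per1 and Per2, the glucocorticoid-responsive Hif3a and Tsc22d3, the pericyte gene Rgs5, the smooth muscle gene Cnn1, and Or51e1 and Grem1, whose hypoxia arrays lie far above normoxia. Points are arrays, lines are group means and bars ± 1 SD (n = 4), and y axes differ and do not start at 0. Estradiol and fulvestrant arrays do not overlap in Per1, Per2, Hif3a, Tsc22d3, Rgs5 and Cnn1; in Grem1 the means of both groups lie between those of normoxia and hypoxia, and estradiol replicate 4 lies at the level of the highest normoxia array.

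Because clock and immediate early genes are regulated through short promoter elements, promoters were searched on both strands for the E-box CACGTG, read by clock proteins among others, the cyclic AMP response element TGACGTCA, the estrogen response element (GGTCA and TGACC, 3 bases apart) and the glucocorticoid response element (AGAACA and TGTTC, 3 bases apart). The window was 250 bases before and 50 after the start site, from RefSeq's assembly GRCr8. Of 27457 promoters, 1826 (6.65%) held the E-box, 525 (1.91%) the cyclic AMP response element, 7 (0.0255%) the estrogen response element and 10 (0.0364%) the glucocorticoid response element. The E-box was present in 3 of 16 clock promoters, 6 of 22 immediate early promoters and 2 of 23 glucocorticoid-responsive promoters, and the cyclic AMP response element in 0, 4 and 1 of them. The promoters of the 7 genes that passed held none of the 4 motifs, and neither hormone response element was found in the promoters of those 3 lists. Both hormone elements were too rare in this window for their absence from sets this small to be informative. Among the 48 genes named by rule, 35 had an entry, 5 with the E-box and 1, Scg2, with the cyclic AMP response element. A match is a description of these letters and not evidence of binding. The 250 bases upstream of Bhlhe41 (chr4:180569356-180569605, minus strand), Dusp2 (chr3:135009386-135009635, plus strand) and Scg2 (chr9:88256867-88257116, minus strand) are shown as 1 clock, 1 immediate early and 1 low-p example; each reads 5′ to 3′ toward the gene, and capitals mark the E-box in the first and second and the cyclic AMP response element in Scg2.
Bhlhe41: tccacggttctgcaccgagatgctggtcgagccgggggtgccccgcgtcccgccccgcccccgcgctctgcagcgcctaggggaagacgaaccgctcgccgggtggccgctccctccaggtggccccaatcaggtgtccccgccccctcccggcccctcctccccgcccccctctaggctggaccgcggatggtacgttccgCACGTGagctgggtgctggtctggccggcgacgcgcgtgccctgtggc
Dusp2: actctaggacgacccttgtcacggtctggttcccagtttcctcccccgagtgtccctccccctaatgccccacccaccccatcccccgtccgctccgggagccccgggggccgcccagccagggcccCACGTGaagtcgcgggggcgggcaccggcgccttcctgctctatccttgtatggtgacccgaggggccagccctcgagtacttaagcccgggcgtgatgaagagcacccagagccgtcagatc
Scg2: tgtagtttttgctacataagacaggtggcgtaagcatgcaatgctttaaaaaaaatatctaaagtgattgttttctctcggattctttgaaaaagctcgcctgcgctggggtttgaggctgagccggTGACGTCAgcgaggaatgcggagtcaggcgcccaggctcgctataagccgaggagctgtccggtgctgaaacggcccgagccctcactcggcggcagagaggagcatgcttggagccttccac
The first base of the motif lies at -48 from the start site in Bhlhe41, and at -123 in both Dusp2 and Scg2.

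Neutrophil markers were highest on the same estradiol arrays. Of 24 measured, 0 passed, 22 were lower with fulvestrant and 2 higher, and the median was -0.61, the largest of the 47 lists in size. The calcium-binding protein gene S100a8 read 7.33, 8.51, 8.35 and 7.24 with estradiol and 6.63, 7.02, 7.18 and 6.42 with fulvestrant (-1.04, SE 0.27, limma adjusted p = 0.095), and was the 1 member without overlap (4.17%, against 4.27% of all genes). Its partner S100a9 differed by -0.81 (adjusted p = 0.229), the collagenase gene Mmp8 by -1.01 (0.195), the niacin receptor gene Hcar2 by -0.69 (0.119) and the cathelicidin gene Camp by -0.55 (0.158). The list mean was 0.56, 1.30, 1.21 and 0.41 on the estradiol arrays and 0.20, 0.40, 0.43 and 0.22 on the fulvestrant arrays, relative to hypoxia, whose own arrays ran from -0.30 to 0.22. Replicates 2 and 3 of the estradiol group were again the highest, and without them the list median was -0.12, S100a8 -0.47, S100a9 -0.29, Mmp8 -0.47, Hcar2 -0.26 and Camp -0.33. Camp was also at -0.33 without replicate 2 alone. Lung vessels were flushed with saline before freezing, and the labels give no measure of the blood that remained; its part in these differences was not tested.

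Contractile genes of smooth muscle lay in the other direction. Of 17 measured, 16 were higher with fulvestrant, 0 passed, the median was 0.24, and in 8 (47.1%, against 4.78% of all genes) all fulvestrant arrays lay above all estradiol arrays. Cnn1, the actin-binding protein calponin, read 10.82, 11.08, 10.88 and 10.87 with estradiol and 11.25, 11.21, 11.41 and 11.67 with fulvestrant (0.47, SE 0.11, limma adjusted p = 0.0783). Myl9, a myosin regulatory light chain, read 10.88, 10.87, 10.60 and 10.89 against 11.26, 11.004, 11.31 and 11.43 (0.44, SE 0.11, adjusted p = 0.0783). Myocd, the cofactor that drives smooth muscle transcription, differed by 0.60 (adjusted p = 0.0815), with estradiol replicate 4, at 9.68, among the fulvestrant arrays (9.52 to 10.12). The smooth muscle actins Acta2 and Actg2 differed by 0.21 (adjusted p = 0.125) and 0.58 (0.101), desmin (Des) by 0.30, smoothelin (Smtn) by 0.30 and the heavy chain Myh11 by 0.17 (0.61). Relative to the hypoxia group, the list mean was -0.18, -0.03, -0.19 and -0.02 on the estradiol arrays and 0.17, 0.07, 0.17 and 0.36 on the fulvestrant arrays. Without estradiol replicates 2 and 3 the median stayed at 0.24, and over all 19 alternatives it ran from 0.18 to 0.29. Under hypoxia without drug, the same list was 0.26 above normoxia by its median. Against those hypoxia arrays the list median was -0.06 with estradiol and 0.18 with fulvestrant. By list mean the hypoxia arrays ran from -0.14 to 0.13, so fulvestrant replicate 2, at 0.07, lay among them. Between the fulvestrant and the hypoxia arrays 0 genes passed by limma.

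Vessel and matrix lists had smaller medians. Of 12 pericyte markers 10 were higher, with a median of 0.07 that became -0.01 without estradiol replicate 3, 0.04 without fulvestrant replicate 3, 0.11 without replicate 2 of either group and 0.01 without estradiol replicates 2 and 3; Pdgfrb, the pericyte receptor for platelet-derived growth factor, differed by 0.26 (adjusted p = 0.0876) and the matrix protein periostin (Postn) by 0.34 (0.0801). Of 38 matrix and crosslinking genes 30 were higher, with a median of 0.11, and 8 of the 38 were without overlap in that direction (4.78% of all genes), among them Mfap5 (0.42, adjusted p = 0.107), a microfibril protein, and the crosslinking enzyme Loxl1 (0.32, 0.201); Ccn2 (-0.37, 0.175), a matrix protein induced by stretch, and the protease inhibitor Timp3 (-0.25, 0.117) were lower without overlap (4.27% of all genes). Of 17 lung capillary markers 14 were higher, with a median of 0.15, and 5 (29.4%, against 4.78% of all genes) were higher without overlap, including the carbonic anhydrase Car4 (0.34, adjusted p = 0.0638) and the apelin receptor Aplnr (0.45, 0.0638). The capillary median was 0.25 without estradiol replicate 4 and 0.02 without estradiol replicates 2 and 3. That of 18 pan-endothelial markers went from 0.12 to 0.05 without replicate 3 and 0.03 without both. Matrix genes kept 0.10. No gene of these lists passed.

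**Figure D4:**
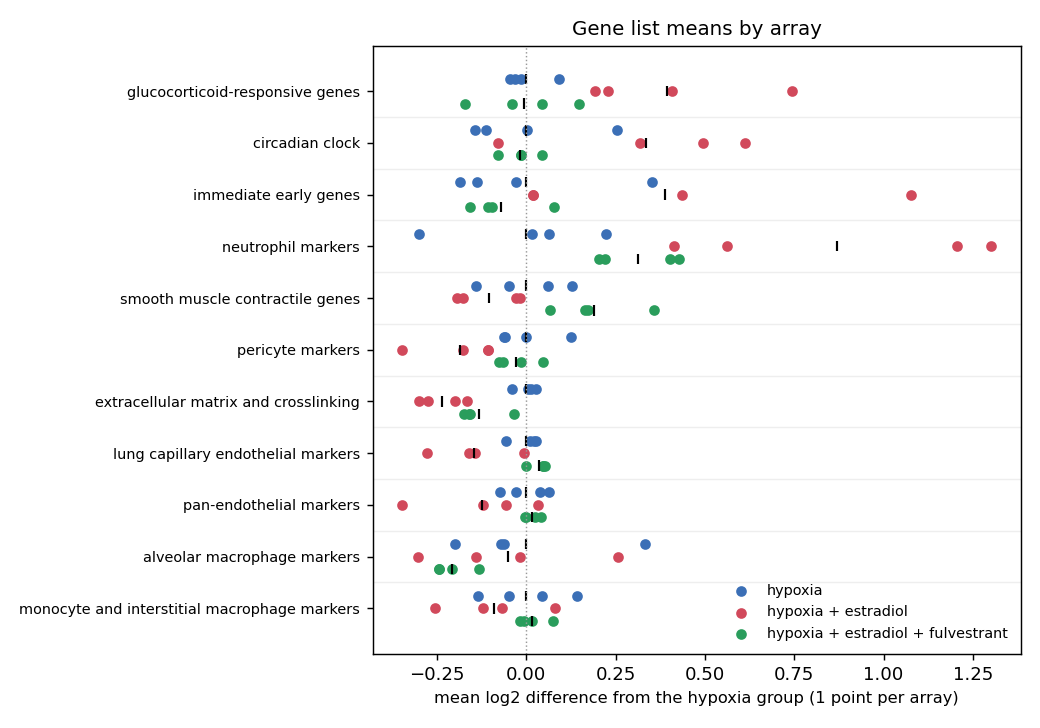
Mean log2 difference of 11 gene lists from the hypoxia group mean (x axis), 1 point per array and 1 row of points per group: hypoxia (blue), hypoxia with estradiol (red) and hypoxia with estradiol and fulvestrant (green); short black bars are group means (n = 4). In neutrophil, glucocorticoid-responsive and immediate early genes the red points spread to the right, as far as 1.30, while the green ones stay within -0.17 to 0.43; in smooth muscle contractile genes all green points, from 0.07 to 0.36, lie to the right of all red ones.

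Genes tied to pulmonary hypertension or singled out in earlier accounts of these arrays were read in the comparison whatever their p, and none passed. Grem1, a secreted antagonist of bone morphogenetic proteins, read 6.90, 7.03, 7.004 and 6.54 with estradiol and 7.42, 7.30, 7.71 and 6.98 with fulvestrant (0.49, SE 0.14, limma adjusted p = 0.121). Fulvestrant replicate 4 fell within the estradiol arrays, and every fulvestrant array was below every hypoxia array (7.90 to 8.09) and above the normoxia mean of 6.27. Or51e1, which belongs to the olfactory receptor family, read 9.15, 8.95, 8.24 and 8.0 against 10.19, 9.42, 10.25 and 9.10 (1.15, 2.22-fold, SE 0.28, adjusted p = 0.0793); the groups overlapped at estradiol replicate 1. Sfrp2, a secreted modulator of Wnt signalling, read 9.78, 8.96, 9.12 and 8.68 against 10.17, 9.79, 9.78 and 9.56 (0.69, SE 0.27, adjusted p = 0.235). Lypd8l1 differed by -0.43 (SE 0.21, adjusted p = 0.362), by -0.24 without fulvestrant replicate 3 and by -0.28 without estradiol replicates 2 and 3, and its fulvestrant arrays (8.43 to 9.50) remained above all hypoxia arrays (7.66 to 8.07). The same estradiol arrays had differed from hypoxia by -1.11 in Grem1, -1.43 in Or51e1, -1.40 in Sfrp2 and 1.59 in Lypd8l1. For genes singled out on those arrays, a shift the other way can follow from the choice alone and adds no support. For Bmpr2, the bone morphogenetic protein receptor whose mutations cause heritable disease of the pulmonary arteries, the difference was -0.01 with a 95% interval of -0.14 to 0.12, and -0.04 without estradiol replicates 2 and 3. The vasoconstrictor gene Edn1 was at 0.05 (interval -0.74 to 0.84), took either sign as single arrays were left out and was at -0.41 without estradiol replicates 2 and 3, and Vegfa was at 0.15 (interval 0.01 to 0.29, adjusted p = 0.29), or 0.10 without estradiol replicate 3. Ntrk2, whose hypoxia arrays averaged 3.63 above normoxia, differed by 0.01 (interval -0.34 to 0.35) between the drug groups, and by -0.06 without estradiol replicates 2 and 3. Cyp1a1, a cytochrome P450 of estrogen hydroxylation, differed by -0.53 (SE 0.58, adjusted p = 0.742), with estradiol replicate 4 at 9.40 against 6.01 to 7.04 for the other estradiol arrays. It differed by 0.21 without that array and by -1.05 without estradiol replicates 2 and 3.

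Genes that hypoxia alone changed were chosen on the 4 normoxia and 4 hypoxia arrays, none of which belongs to the drug groups, although they enter the shared spread of the test, and then read between the drug groups. That choice gave 581 genes (4.01% of those tested). Of 361 genes that rose in hypoxia (2.49%), 0 passed with fulvestrant in the limma fit, 231 (64.0%) were higher and 130 lower, against 51.5% higher among all genes. Their median difference was 0.08, and the arrays did not overlap in 43 (11.9%, against 4.78%) that were higher and 10 (2.77%, against 4.27%) that were lower. Averaged over these genes, the level above normoxia was 0.74, 0.64, 0.58 and 0.69 on the hypoxia arrays, 0.56, 0.48, 0.43 and 0.46 on the estradiol arrays, and 0.52, 0.57, 0.59 and 0.53 on the fulvestrant arrays. The last 2 groups overlapped, at estradiol replicate 1. Their levels cannot be read against those of the hypoxia arrays, because the genes were chosen for being high there. The median rested in part on estradiol replicate 3, without which it was 0.04, and it was 0.02 without replicates 2 and 3. Of 220 genes that fell in hypoxia (1.52%), 0 passed, 122 (55.5%) were higher with fulvestrant, the arrays did not overlap in 20 that were higher (9.09%) and 6 that were lower (2.73%), and the median was 0.04, on the side away from the hypoxia change; without fulvestrant replicate 2 it was 0.0082. Their mean was -0.47, -0.38, -0.47 and -0.46 relative to normoxia with estradiol and -0.41, -0.36, -0.45 and -0.49 with fulvestrant, so these groups overlapped.

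**Figure D5:**
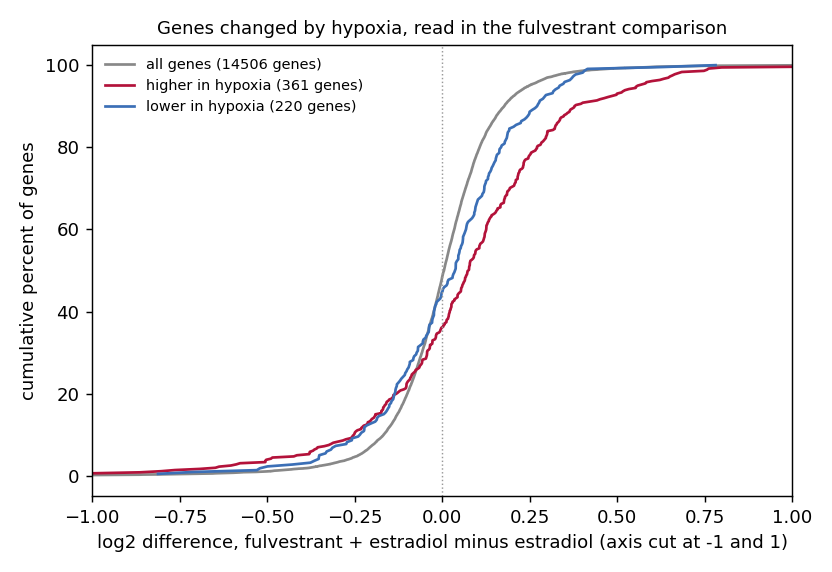
Cumulative percent of genes (y axis) by log2 difference between fulvestrant and estradiol arrays (x axis, drawn from -1 to 1) for all 14506 genes, the 361 genes higher in hypoxia and the 220 lower in hypoxia, both chosen on other arrays. The curve of genes higher in hypoxia lies to the right of that of all genes above 0, with a median of 0.08 against 0.005; that of genes lower in hypoxia has a median of 0.04.

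Targets of hypoxia-inducible factors (35 genes, median 0.005) and glycolysis (23 genes, median -0.04) had medians near 0 that took either sign as single arrays were left out, and were -0.09 and -0.07 without estradiol replicates 2 and 3. Hk2, the hexokinase of muscle and fat, differed by -0.62 (SE 0.13, limma adjusted p = 0.0638) and Pfkfb3, which drives glycolytic flux, by -0.87 (SE 0.26, 0.127), both without overlap. Of 47 genes of vascular tone 32 were higher (median 0.08, or 0.04 without estradiol replicate 3 and 0.03 without estradiol replicates 2 and 3), and 5 of the 47 were higher without overlap (4.78% of all genes), among them the soluble guanylate cyclase subunit Gucy1b1 (0.24, adjusted p = 0.157), the cyclic GMP-dependent kinase Prkg1 (0.24, 0.155) and the potassium channel Kcnk3 (0.24, 0.226). Of 42 genes of bone morphogenetic protein and TGF-beta signalling the median was 0.04, 0.0018 without estradiol replicate 3, 0.06 without replicate 4 and -0.02 without replicates 2 and 3, with Tgfb2 at 0.39 (adjusted p = 0.103) and the activin subunit Inhba at 0.35 (0.0963). Cholesterol synthesis and uptake had a median of -0.19 over 20 genes, -0.07 without estradiol replicate 3, -0.30 without replicate 4, -0.10 without fulvestrant replicate 1, and -0.03 without estradiol replicates 2 and 3; fatty acid synthesis and oxidation had -0.12 over 29, with fatty acid synthase (Fasn) at -0.47 (adjusted p = 0.0795). None of these genes passed.

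Set directly against hypoxia without drug, the group that received estradiol and fulvestrant had 0 genes past an adjusted p of 0.05 by limma and 0 past 0.10; 1009 genes (6.96%) had an unadjusted p under 0.05. The smallest adjusted p was that of Scg2 (0.127), whose difference was -0.39; under other fits of this contrast 0 to 2 genes passed, Scg2 in 4 of them and Plac8 in 1. Failing the threshold does not show equal levels: the fulvestrant arrays of S100a9 were 0.80 and those of Mmp8 0.94 above the hypoxia mean, Grem1 was 0.63 and Sfrp2 0.71 below it, and Lypd8l1 1.16 above it (adjusted p from 0.238 to 0.644). For comparison, estradiol without fulvestrant differed from the same hypoxia arrays in 112 genes (0.772%). Against normoxia, 430 genes (2.96%) passed with fulvestrant, 286 higher (1.97%) and 144 lower (0.993%), and 756 (5.21%) passed with estradiol alone. These contrasts share the drug arrays or the reference arrays, and a difference between such counts was not tested.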

How the data were processed

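RNA from 16 rat lungs, 1 array per rat, was measured on Affymetrix gene arrays. The deposited table holds log2 signals that the authors made with RMA and Partek, per the submitters' processing notes; versions, settings and a genome build are not given in the sources used here. RMA gives every array the same distribution, which would hide a change common to most genes, and it compresses differences of dim probe sets. The number of arrays, 4 in each group, limits the precision. Replicates are separate rats per the labels, so p-values measure the spread between rats; neither batch nor date is given, and since samples were submitted group by group, batch and group cannot be told apart. The title of normoxia replicate 4 says normoxia and its treatment field hypoxia; it was kept as normoxia, and leaving it out was an alternative.

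Of 29214 probe sets, 15310 had exactly 1 gene symbol in the platform annotation, 323 had several and 13581 had none. The probe set with the highest mean stood for each of 527 genes with several, leaving 14506 genes, with no filter on dim genes; 14480 matched the RefSeq table by gene ID. One limma 3.58.1 model (R 4.3.3) of 4 group means over all 16 arrays gave differences, standard errors (SE) and 2-sided p-values, adjusted by Benjamini-Hochberg over all genes with a threshold of 0.05. Simulated data for this comparison held 14506 genes, of which 200 were changed. Of these, 82 of 100 changed by 0.5 and 99 of 100 changed by 1 were recovered, and 8 unchanged genes were called. The simulated noise was normal and independent between genes, with the same SD in all groups. The wider spread of the estradiol arrays and shifts shared by many genes were not modelled, so these counts need not hold for the real arrays. Gene lists are described by counts and medians with no set test. The hypoxia gene sets came from a fit of the normoxia and hypoxia arrays alone.

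Named genes were the passing genes, filled to 10 per direction by smallest p, up to 4 passing members of each list, the 3 members with the smallest p of each list with none passing whose median was past 0.2 in size, and 16 genes always named; other list members are examples chosen after their values were seen. The comparison, lists and rule were chosen with earlier results of these data known. Alternatives were the 8 or 12 hypoxic arrays alone, normoxia replicate 4 left out, median centring, quantile normalization again, the dimmest 25% of genes left out, the mean of a gene's probe sets, every probe set, trend and robust moderation, array weights, each array left out, and estradiol replicates 2 and 3 left out. The adjusted p of 0.10, the E-box and the cyclic AMP response element were added after seeing the data.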

Additional observations from a re-analysis of the deposited data

Results flagged for a closer look

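Within groups of 4 arrays, 118 sets of values were screened for 1 array far from the other 3, and 9 held such an array; chance alone gives this in about 1 in 20. Estradiol replicate 4 stood apart in 3 genes: it was the highest of its group for Cx3cr1 (9.53) and the lowest for Rab20 (8.59) and Gper1 (8.23). Estradiol replicate 3 was the lowest of its group for Myl9 (10.6). Fulvestrant replicate 2 was the lowest of its group for Atp1b2 (8.02) and Per2 (8.32) and the highest for Ntrk2 (11.41). By list mean, fulvestrant replicate 3 was the highest of its group for matrix and crosslinking genes (-0.034) and fulvestrant replicate 4 the lowest for lung capillary markers (-0.002).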

How the results depend on the processing

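The number of passing genes depended on the fit, and so did the balance of higher and lower ones. It was 7 as reported (3 higher, 4 lower) and 0 (0 higher, 0 lower) with the 8 arrays alone, with the 12 hypoxic arrays, and without estradiol replicates 2 and 3. It was 12 with quantile normalization again (5 higher, 7 lower), 28 with the dimmest genes left out (16 and 12, of 10879 tested), 44 with trend and robust moderation (27 and 17), and 1 with every probe set tested (0 and 1); with median centring 2 were higher and 7 lower, and without normoxia replicate 4 there were 4 and 3. Leaving out 1 array gave 0 to 331 genes, 0 to 160 higher and 0 to 171 lower. The median difference of genes that rose in hypoxia ran from 0.0381 to 0.0941 with 1 array left out and was 0.0191 without estradiol replicates 2 and 3; that of genes that fell ran from 0.0082 to 0.0484. The cause of these shifts was not tested.

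Among named genes, direction reversed only where the difference was near 0 or 1 array was far from its group. With 1 array left out, Esr2 ran from -0.1999 to 0.0506, Bmpr2 from -0.0354 to 0.0116, Edn1 from -0.33 to 0.2655, Ntrk2 from -0.0658 to 0.0455 and Cyp1a1 from -0.92 to 0.21. Esr2 was at 0.0506 without estradiol replicate 2 and 0.0546 without 2 and 3. Bmpr2 was at 0.0116 without estradiol replicate 4 and 0.0014 without fulvestrant replicate 3. Edn1 was at -0.33 without estradiol replicate 3, -0.0556 without fulvestrant replicate 2 and -0.41 without estradiol replicates 2 and 3. Ntrk2 was at -0.0125 with median centring, -0.0658 without estradiol replicate 3, -0.0371 without fulvestrant replicate 2 and -0.0648 without estradiol replicates 2 and 3. Cyp1a1 was at 0.21 without estradiol replicate 4. No paired analysis was possible because the labels give the groups no shared replicate numbers. With 4 arrays per group, differences near 0.5 can be missed, and RMA limits what dim probe sets show.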

Other observations

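Homeobox genes of the Hoxa cluster, looked at after Hoxa4 had been seen among the smallest p-values, are given here with the other clusters. Of 5 Hoxa genes measured, Hoxa4 among them, 4 were higher, 3 without overlap (4.78% of all genes), with a median of 0.57; Hoxa5, which patterns the developing lung, was at 0.76 (limma adjusted p = 0.0638), Hoxa2 at 0.54 (0.0638) and Hoxa7 at 0.69 (0.285), while Hoxa11 was at -0.08. In the Hoxb cluster 6 of 7 were higher (1 without overlap, median 0.16), in Hoxc 2 of 4 (median -0.01) and in Hoxd 6 of 6 (median 0.09). None of the 22 passed.

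Some of the widest differences belonged to genes outside the rule, chosen here for their size after their values were seen, and none of them passed. Jchain, the joining chain of secreted immunoglobulins, was lowest of all genes, from 11.20 ± 0.65 on the estradiol arrays to 9.49 ± 0.59 on the fulvestrant arrays (SD, n = 4; -1.71, SE 0.38, limma adjusted p = 0.0703), without overlap. Ereg, an epidermal growth factor receptor ligand like Areg, went from 9.45 ± 1.54 to 7.77 ± 0.25 (-1.67, SE 0.51, adjusted p = 0.134) with overlap. On the other side, Hey2, a Notch target of arterial endothelium and smooth muscle, was at 0.95 (SE 0.20, adjusted p = 0.0638), and Rgs4, a regulator of G protein signalling like Rgs5, at 1.11 (SE 0.29, 0.097), both without overlap. Complement component C6 had the highest difference of all, 1.35 (SE 0.52, adjusted p = 0.235), with overlap.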
